A study of Mus musculus with 4 samples.

Results

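The genes described here encode the chains of mouse MHC class II molecules and the proteins that load them with peptide: H2-Ab1, H2-Aa, H2-Eb1, H2-DMa, H2-DMb1 and Cd74. They were chosen by name, as every probe set annotated with 1 of these 6 symbols, of 6137 genes with a symbol on the arrays. This gave 11 probe sets of 13069, controls left out. The B chip held 8 of them (of 6540) and covered all 6 genes, and the A chip held 3 (of 6529), all annotated as H2-Aa. The arrays read CD8 T cells from B6.2.16 animals, which carry a transgenic T cell receptor for the male HY antigen. All donors and hosts were female and RAG1-deficient, so memory and naive preparations shared the receptor transgene and the absence of rearranged lymphocytes other than the transgenic T cells. The naive group was lymph node cells at a stated purity above 85%. The memory group came from splenocytes that had been kept for 4 days with HY peptide and then transferred, and that were recovered from spleen and lymph nodes of the hosts after 200 days by magnetic beads, at a stated purity above 80%. The sources used here do not give ages, the number of animals or whether animals were pooled. Each group was read once on each of the 2 chips, 4 arrays in all, so there was no replicate, no standard error and no test, and each difference below compares 1 memory array with 1 naive array. Tissue, culture, transfer, time and sorting changed together with the group and cannot be told apart.

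MHC class II molecules are pairs of an alpha and a beta chain that display peptides from endosomes to CD4 T cells. They are typical of dendritic cells, macrophages and B cells, and mouse T cells are generally regarded as making little or none of them. The invariant chain, Cd74, fills the groove of newly made class II molecules and guides them to endosomes, where cathepsins and legumain cut it down and the H2-DM heterodimer exchanges the remaining fragment for peptide. The genes are known to be switched on together by the transactivator Ciita, which docks on a shared promoter module of an X box, bound by the RFX complex, and a Y box, bound by NF-Y.

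RefSeq promoter windows (build GRCm38.p6) were matched for 4 of the 6 genes, H2-Aa, H2-Eb1, H2-DMa and H2-DMb1. The 250 bases before the annotated start are printed below for the 3 of them that held both boxes, because this module is what the family is known to share. Capitals mark the X motif CTNGNAAC and the Y motif TGATTGG, each searched on both strands. The letters of the X motif were set with these promoters in view.
H2-Aa, chr17:34287824-34288073, minus strand: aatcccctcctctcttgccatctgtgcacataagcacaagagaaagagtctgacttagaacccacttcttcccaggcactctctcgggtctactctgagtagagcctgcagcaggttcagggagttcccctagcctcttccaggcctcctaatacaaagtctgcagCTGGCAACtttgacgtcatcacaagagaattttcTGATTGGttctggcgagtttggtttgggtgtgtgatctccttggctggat
H2-Eb1, chr17:34305617-34305866, plus strand: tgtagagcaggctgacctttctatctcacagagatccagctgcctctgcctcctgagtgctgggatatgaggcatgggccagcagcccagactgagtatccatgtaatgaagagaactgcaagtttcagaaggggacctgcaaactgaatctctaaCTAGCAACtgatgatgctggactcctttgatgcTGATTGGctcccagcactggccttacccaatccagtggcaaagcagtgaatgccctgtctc
H2-DMb1, chr17:34152941-34153190, plus strand: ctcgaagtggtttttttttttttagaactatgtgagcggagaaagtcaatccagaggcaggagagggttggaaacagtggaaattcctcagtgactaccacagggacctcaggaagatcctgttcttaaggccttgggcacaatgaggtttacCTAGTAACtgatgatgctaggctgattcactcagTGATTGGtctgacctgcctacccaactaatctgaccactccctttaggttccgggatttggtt
In each of the 3 windows the X motif lay upstream of the Y motif on the coding strand, with 26, 25 and 26 bases between them for H2-Aa, H2-Eb1 and H2-DMb1. The Y motif began 50, 61 and 63 bases before the start. In H2-Aa and H2-Eb1 it was part of the longer form CTGATTGG, which was not matched in H2-DMb1. Over all 32851 promoter windows of this length, 10.9% held the X motif, 7.23% the Y motif and 3.83% the longer Y form. The pair in this order on 1 strand, with at most 40 bases between, was found in 27 windows (0.0822%) of 24 genes. Among those 24 were also H2-Ob, a chain of the H2-DM inhibitor, and Rfx5, a subunit of the RFX complex, 2 genes named here after the matches were seen. Most of the 24 were neither among the 6 genes described here nor on the pathway list used below, for example Dnmt1, Epha7 and Pou3f2. H2-Oa, the partner chain of H2-Ob, had the longer Y form in its window but no X motif, and so no pair. The 2 windows of H2-DMa, which has 2 annotated starts, held neither motif. A match describes letters only and is not a site shown to be bound.

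Intensities below zero made up 34.0% of the memory and 35.6% of the naive values on the B chip. Values under 423, the floor set from the size of these negative values on the noisier array, were treated as noise and set to 423 before a ratio was taken. The arrays of the B chip ranked probe sets alike (Spearman 0.85 across 6540 probe sets), whereas those of the A chip hardly did (0.10 across 6529). The 55 controls that the chips share correlated at 0.96 between the memory arrays and at 0.21 between the naive arrays. These are correlations across probe sets, which are not replicates. The naive A array was therefore not compared with any other array, and the A chip is described by its memory array. Of 7 T cell markers on the B chip, 3 were above the floor in memory and 4 in naive. Cd3d, a chain of the receptor complex, was above it on both arrays (959 in memory and 1115 in naive), as was Thy1. The coreceptor Cd8a was above it in memory (498) but not in naive (352). Cd3g (254 in memory and 502 in naive) and Zap70 (221 and 424) were above it in naive only. Cd2 and Cd247 were under it on both arrays.

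All 6 genes had a probe set over the floor in memory, naive or both on the B chip. On this pair of arrays they did not move as a block. All 8 probe sets were over the floor on 1 array or both, as were 16.1% of all probe sets of the chip. The chain H2-Ab1 and the loading chain H2-DMb1 were at least 2-fold higher on the memory array, Cd74 was at least 2-fold lower, and H2-Aa and H2-Eb1 lay within 2-fold in opposite directions. By probe set, 2 of 8 were higher (against 6.34% of the 1056 probe sets of the chip above the floor on 1 array or both) and 1 of 8 was lower (against 10.7%). The count of 1 lower is thus near the background, and no class II probe set was called lower with quantile or intensity-dependent normalization. With the latter, Cd74 was at -0.30 and the brighter H2-Eb1 probe set at -0.15 on the log2 scale. With scaling by the median ratio the chip-wide shares became 8.25% and 8.35%, with quantile normalization 7.99% and 5.84%, and with intensity-dependent normalization 7.31% and 5.22%. The log2 ratios of memory to naive ran from -1.63 to 1.31, with a median of 0.22 beside -0.12 for all 1056. The sign of that median was not stable: it turned to -0.17 without the 2 sequence-family probe sets, whose probes can match several related genes, and to -0.63 with the 1 probe set that has no class letter in its name. In RNA of a mixed preparation, fewer cells of a type and less RNA per cell cannot be told apart.

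**Figure D1:**
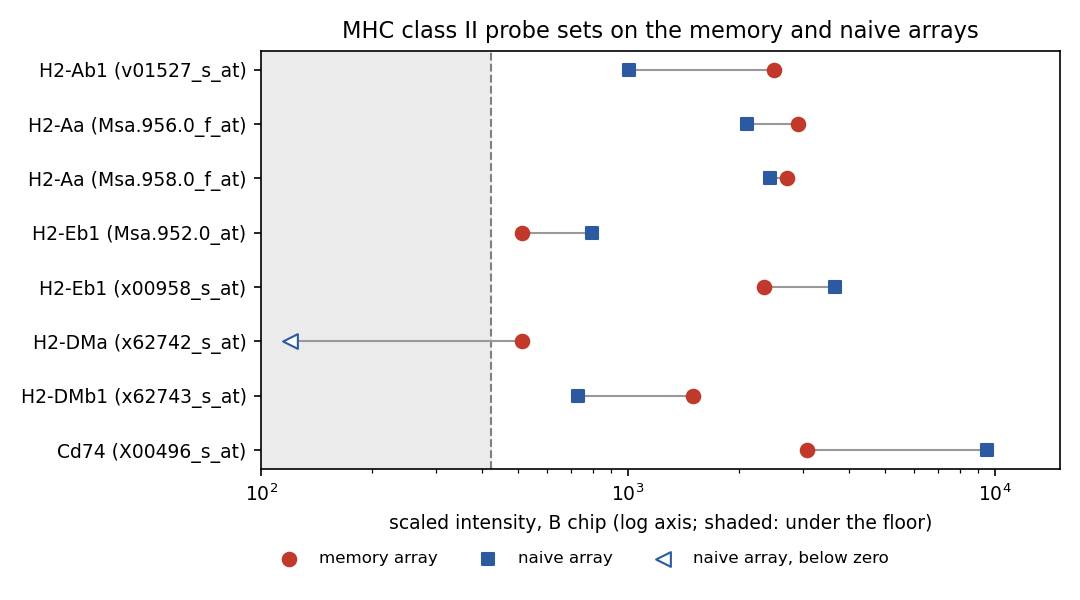
Scaled intensity (log axis) of the 8 MHC class II probe sets on the memory array (circles) and the naive array (squares) of the B chip, with the range under the floor of 423 shaded. The open triangle stands for the naive H2-DMa value, which was below zero and is drawn near the edge of the axis. H2-Ab1, H2-Aa, H2-DMa and H2-DMb1 lie higher on the memory array, H2-Eb1 and Cd74 higher on the naive array.

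The classical chains were read by 5 probe sets. H2-Ab1, the beta chain of the I-A molecule, gave 2500.3 on the memory array and 1008.5 on the naive array, a 2.48-fold difference. The memory array was the higher one, and both values stood clear of the floor, at 5.91 and 2.39 times it. Its partner H2-Aa, the alpha chain of I-A, gave 2908 in memory and 2114 in naive with the brighter of its probe sets in memory. The other H2-Aa probe set gave 2709 and 2434. Both put H2-Aa slightly higher in memory, with log2 ratios of 0.46 and 0.15, well inside 2-fold. Both are of the class the maker marks as sequence family (_f), whose probes can match several related genes, so they may read other class II chains as well. The log2 ratio of H2-Ab1 exceeded those of its partner chain by 0.85 and 1.16 with the scaling used here. The gaps were smaller with quantile and intensity-dependent normalization, while a scaling by 1 factor per array leaves such a gap as it was. The ratios were 1.46 against 0.89 and 0.48 with quantile normalization, and 1.34 against 0.76 and 0.49 with intensity-dependent normalization.

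H2-Eb1, the beta chain of the I-E molecule, went the other way. The probe set x00958_s_at gave 2340 in memory and 3652 in naive, and a dimmer one gave 514 and 795, close to the floor. The log2 ratios were -0.64 and -0.63, a difference of 0.014. A scaling by 1 factor per array moves both ratios alike and so cannot change this difference. Other normalizations could, and it grew with each of them. The difference was 0.24 with quantile normalization (-0.35 for the brighter and -0.59 for the dimmer probe set) and 0.41 with intensity-dependent normalization (-0.15 and -0.57), and with the floor doubled the dimmer probe set was under the floor on both arrays. Across the 33 genes of the B chip with a pair of probe sets above the floor on both arrays, the log2 ratios of a pair differed by a median of 0.26, and by up to 0.59 in 75% and 0.71 in 90% of genes. The H2-Aa pair differed by 0.31. Probe sets of 1 gene share the same labelled RNA and are not replicates, so this spread says nothing of variation between samples. It is not that of probes alone either, because the gap of a pair also changed with the normalization, as for H2-Eb1. H2-Ea, which would supply the alpha chain of I-E and is annotated as a transcribed pseudogene in the C57BL/6J assembly, was under the floor on both B arrays (58.6 and 88.7).

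The H2-DM heterodimer, which edits the peptides held by class II molecules, was read by 1 probe set per chain. Its beta chain H2-DMb1 gave 1503 in memory and 728 in naive, a 2.06-fold difference. The naive value lay only 1.72 times above the floor, and with the floor doubled the ratio shrank to 0.83 on the log2 scale, inside 2-fold. Its alpha chain H2-DMa gave 513 in memory and -213 in naive, so it was above the floor on the memory array alone and was at least 1.21-fold higher there. That bound became at least 2.43-fold with the floor halved, and with the floor doubled no difference was detectable. Both chains thus read higher on the memory array, but H2-DMa only as a bound that the floor sets.

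Cd74, the invariant chain, gave 3068 in memory and 9507 in naive, a 3.10-fold difference towards the naive array. On the naive array 0.321% of probe sets were brighter, and on the memory array 1.02% were. At that end of the scale ratios were low in general. The 35 other probe sets with a mean log2 intensity within 0.25 of that of Cd74 had a median log2 ratio of -1.44, and their interquartile range ran from -1.68 to -0.85. The Cd74 ratio of -1.63 lay inside that range. The call was lost with quantile normalization, where the log2 ratio was -0.69, and with intensity-dependent normalization, where it was -0.30. The part of the bright-end trend in the Cd74 difference was not tested beyond these settings.

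The same comparison with probe sets of like brightness separated the other genes. H2-Ab1, at 1.31, stood above the interquartile range of its 75 neighbours (-0.50 to 0.49, median -0.06). H2-DMb1, at 1.04, stood above that of its 117 neighbours (-0.28 to 0.63, median 0.07). H2-DMa, at 0.28, was above that of its 78 neighbours (-0.24 to 0.16), but its ratio is a bound that the floor sets. Of the H2-Aa probe sets, the one at 0.46 was above the interquartile range of its 55 neighbours (-0.71 to 0.25), while the one at 0.15 was inside its own (-0.71 to 0.23). The brighter H2-Eb1 probe set, at -0.64, was inside the interquartile range of 49 neighbours (-0.84 to 0.25), and the dimmer one, at -0.63, was below that of 180 neighbours (-0.40 to 0.34). Many neighbours also lie outside an interquartile range, so such a place describes a position and is not a call. By this measure H2-Ab1 and H2-DMb1 were high for their intensity, while the lower ratios of Cd74 and of the brighter H2-Eb1 probe set were common among probe sets of like intensity.

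**Figure D2:**
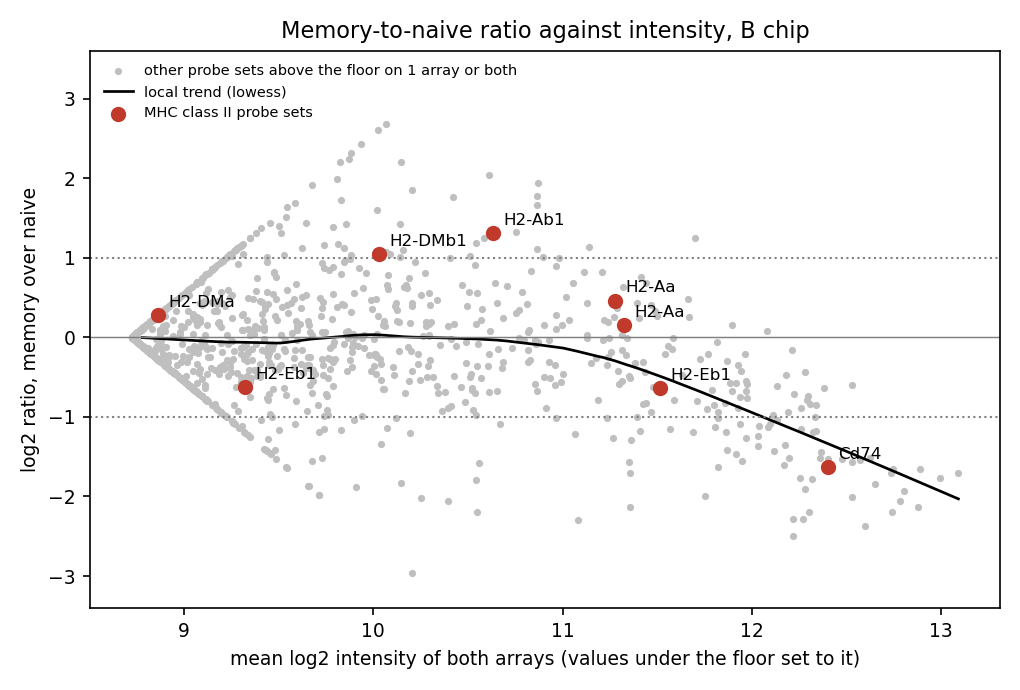
Log2 ratio of memory to naive against mean log2 intensity for the 1056 probe sets of the B chip above the floor on 1 array or both (grey), with the local trend (line), the 2-fold limits (dotted) and the class II probe sets (red). The trend falls below zero at the bright end, where Cd74 sits at -1.63 close to it, while H2-Ab1 at 1.31 and H2-DMb1 at 1.04 lie above the upper 2-fold limit.

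H2-Ab1 and H2-DMb1 had the highest ratios of the 8 probe sets under every scaling that was tried, with the floor unchanged. H2-Ab1 ranged from 1.31 to 1.46 on the log2 scale over all settings of scaling and floor and stayed past 2-fold in each. The H2-Aa probe sets ranged from 0.46 to 0.89 and from 0.15 to 0.49, always higher in memory and never past 2-fold. H2-DMb1 ranged from 0.83 to 1.19. The bound for H2-DMa ranged from 0 with the floor doubled to 1.28 with the floor halved. The brighter H2-Eb1 probe set ranged from -0.64 to -0.15 and the dimmer one from -0.63 to 0, the latter with the floor doubled, so the size of the difference depended on the setting. Cd74 had the widest range, from -1.63 to -0.30.

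**Figure D3:**
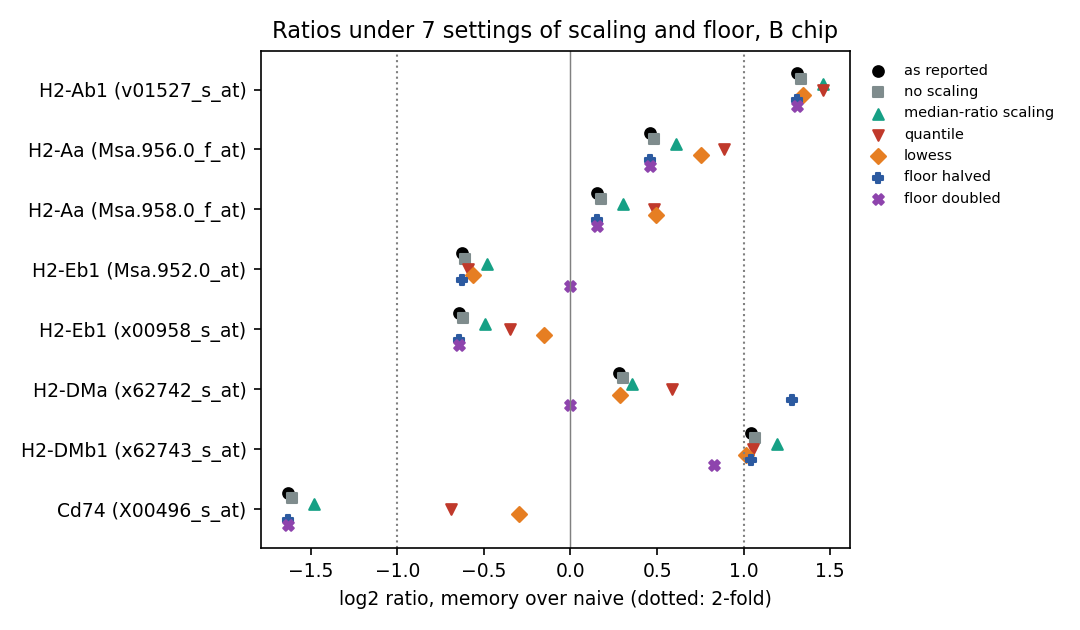
Log2 ratio of memory to naive for each class II probe set of the B chip under 7 settings of scaling and floor (symbols), with the 2-fold limits dotted. H2-Ab1 keeps a ratio between 1.31 and 1.46, whereas Cd74 moves from -1.63 to -0.30 with intensity-dependent (lowess) normalization; points at zero come from values that the doubled floor hides.

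On the memory array of the A chip, H2-Aa was among the brightest signals. All 3 of its probe sets exceeded the noise limit of that array, 184, which 26.7% of its 6529 probe sets did. The probe set AF027865_2_s_at gave 3232, the highest value of any gene probe set on the array. The sequence-family probe sets k01923_f_at and K01925_f_at gave 1559 and 1015, with 1.53% and 3.72% of probe sets brighter. Probe sets differ in how strongly they bind, so these ranks say nothing about the amount of transcript, but the 3 signals stood at 17.6, 8.47 and 5.52 times the noise limit. Probe sets annotated as H2-Aa thus gave a bright signal in the memory preparation on both chips. On the B chip all of them are of the sequence family, so the signal there may include other class II chains. The values of the chips are on separate scales and were not set against each other.

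Other genes of the class II pathway were followed with a list of 27 symbols covering regulators, proteases and related chains. On the B chip 11 of them had a probe set, 2 were above the floor, 1 of these was higher in memory and none lower, too few to set against the chip-wide 6.34%. Legumain, Lgmn, a lysosomal protease that takes part in cutting the invariant chain, was the higher one, with 1148 against 463 (2.48-fold). Its naive value lay just above the floor, and with the floor doubled the log2 ratio shrank from 1.31 to 0.44, inside 2-fold. The endosomal protease cathepsin D, Ctsd, gave 2838 and 2198, a log2 ratio of 0.37. The NF-Y subunits Nfya, Nfyb and Nfyc and the X2-box factor Creb1 were under the floor on both arrays, as were Ctsl, Ctsb, Cd4 and Lag3. On the memory A array 4 of 9 listed genes exceeded the noise limit. They were cathepsin S, Ctss, which completes the cutting of the invariant chain (2409), the cathepsins Ctsb (1939) and Ctsh (524), and the endosomal membrane protein Cd63 (210). The transactivator Ciita (104), the H2-DM inhibitor chains H2-Oa (37) and H2-Ob (-201), H2-Ea (57 and 47) and Cd9 (25) did not exceed it. The bright H2-Aa signal was thus read on an array where Ciita was not detectable with its 1 probe set. Ctsb was under the floor on the B chip with another probe set, so probe sets of this gene disagreed on whether it was detected.

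**Figure D4:**
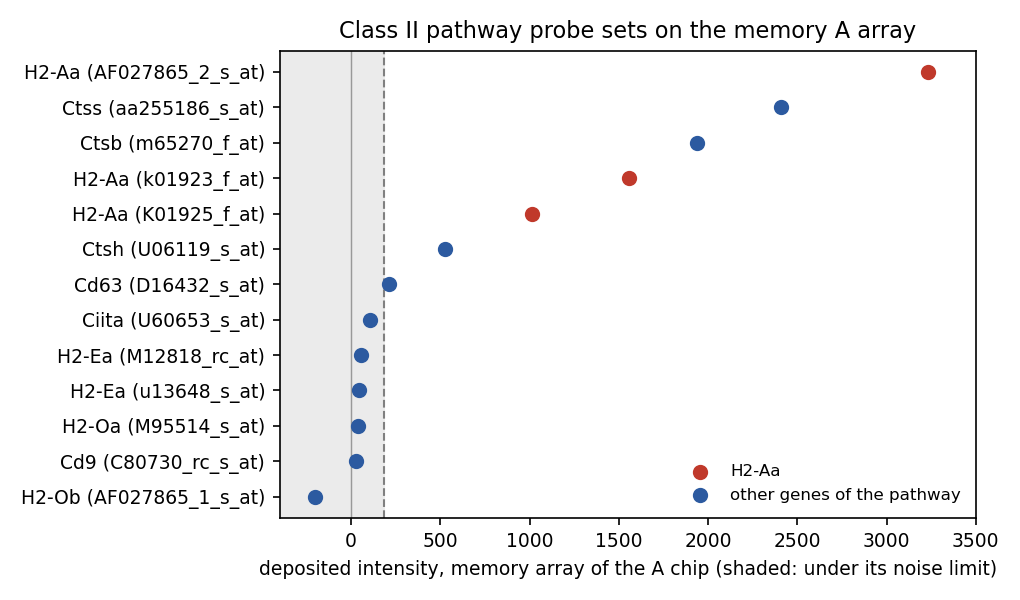
Deposited intensity of the H2-Aa probe sets (red) and of the other listed class II pathway genes (blue) on the memory array of the A chip, with the range under the noise limit of 184 shaded. H2-Aa reaches 3232 and cathepsin S 2409, while Ciita, H2-Ea, H2-Oa, Cd9 and H2-Ob lie in the shaded range.

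Markers of the cell types known to carry class II were read beside these values. Of 10 macrophage markers on the B chip all 10 were above the floor on 1 array or both, 5 were at least 2-fold higher in memory and none lower, with a median log2 ratio of 0.98. Over all probe sets of the chip 16.1% were above the floor, and of these 6.34% were higher and 10.7% lower. The marker lists were chosen with earlier results of these data known, so these shares are a description and not a test. The count of 5 changed to 4 with the floor doubled and to 8 with quantile normalization. Their summed intensity was 27249.7 in memory and 15946 in naive. The receptor Csf1r, for example, had a log2 ratio of 1.32, and the complement subunit C1qb had 1.14 and 1.76 with its probe sets. The ratios of Vcam1 (0.08), C1qc (0.25), Cd14 (0.42), Adgre1 (0.66) and C1qa (0.82) were inside 2-fold. All 10 markers lay on the same side as H2-Ab1 and H2-DMb1 and opposite to Cd74. Of 6 B cell markers only Ighm, the heavy chain of IgM, exceeded the floor, with 1008 in memory and 1836 in naive. The defining B cell genes Cd79a (-48.6 and 69.5) and Pax5 (20.8 and -20.2) were near 0 on both arrays, and the summed intensity of the list was 1132 against 2315. Of the dendritic cell markers the B chip held Flt3, near 0 on both arrays (13.9 and -22.2). On the memory A array 3 of 12 dendritic cell markers exceeded the noise limit, a share near the 26.7% of all probe sets of the array. They were the maturation marker Cd83 (961) and the transcription factors Irf8 (390) and Batf3 (327). Zbtb46, Flt3, Ly75, Cd80, Cd86, Cd40, Fscn1, Irf4 and Tcf4 did not exceed it. On the same array 8 of 12 macrophage markers exceeded the limit, a larger share than that of all probe sets. Fcgr1 (113), Marco (103), Mpeg1 (96) and Mertk (72 and 38) did not, although Mpeg1 was well above the floor in memory on the B chip (3665). Msr1 barely exceeded the limit with 1 probe set (187), and its other one gave 61. Of 10 B cell markers 2 exceeded the limit, a smaller share. They were Ms4a1 (301) and Ighm (297), each with 1 of its probe sets. The other probe set of Ms4a1 gave -19, and those of Ighm gave -5 and -86. Genes were counted by their brightest probe set, whereas the chip-wide share counts every probe set. Of 7 T cell markers on the B chip 5 were above the floor, 1 was lower in memory (Thy1) and none higher, too few to set against the chip-wide 10.7%. The Thy1 log2 ratio of -1.12 came inside 2-fold with median-ratio (-0.97), quantile (-0.34) and intensity-dependent (-0.14) normalization. The summed intensity of the T cell markers was 5186 against 8953, and without Thy1 it was 2338 against 2769. The sums of all these lists took the brightest probe set of each gene. They kept values under the floor, with negative ones counted as 0, so they include noise. The part of these cell types in the class II values was not tested.

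The genes most like each class II gene on the B chip were taken as those at the smallest Euclidean distance in log2 intensity over the 2 arrays. For H2-Ab1 the nearest was the lectin Lgals3 (distance 0.082), followed by Cyp2d10 (0.16). For H2-DMb1 it was the integrin chain Itgb1 (0.054), followed by the kinase Prkcd (0.16). For the H2-Aa probe set with the ratio of 0.46 the nearest was cathepsin D (0.067), followed by the tetraspanin Cd81 (0.13), and for the one at 0.15 the hexokinase Hk1 (0.093) and the kinase Map4k1 (0.11). For the brighter H2-Eb1 probe set it was the selectin ligand Selplg (0.056), and for the dimmer one the clathrin adaptor subunit Ap2m1 (0.056). Both nearest probe sets of Cd74 belonged to the ribosomal protein gene Rplp0 (0.068 and 0.099). With 1 array per group, such a likeness rests on a pair of values and depends on how brightly each probe set binds.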

How the data were processed

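Trizol-extracted RNA was hybridised as cRNA to Affymetrix arrays, per the labels' protocols. The authors deposited 1 intensity per probe set, as whole numbers that include negative ones. The sources used here do not give software, settings or detection calls. Groups came from sample titles. The class II genes and the lists were chosen with earlier results of these data known.

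The 55 controls per chip were left out, and both B arrays were brought to a common 2% trimmed mean (factors 0.993 and 1.01). The floor (423) was the 95th percentile of negative values by size, from the noisier array. A probe set was called when its ratio was at least 2-fold and its brighter array at least 2 times the floor. On the A chip the limit came from the memory array itself. With 1 array per group there is no test, and precision is limited by the number of arrays. Symbols came from the platform annotation, and only probe sets with 1 symbol were named (5560 on A, 2001 on B). Named genes were all class II probe sets, listed genes and the 2 probe sets nearest to each. Neighbours were probe sets above the floor on both arrays within 0.25 in mean log2 intensity. Alternatives were other scalings, floors, size limits and probe set classes; removal of sequence-family probe sets was chosen after seeing the data. Python 3.11.15, pandas 2.3.3 and statsmodels 0.14.6 (lowess, span 0.4) were used.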

Additional observations from a re-analysis of the deposited data

How the results depend on the processing

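No paired analysis was possible because each group had 1 array per chip, and for the same reason arrays were not left out in turn. The count of 2 class II probe sets higher in memory fell to 1 with the floor doubled and to 0 with a 3-fold limit. The count of 1 lower probe set (Cd74) fell to 0 with quantile and with intensity-dependent (lowess) normalization, and rose to 2 with a 1.5-fold limit. Only 1 probe set, of H2-Eb1, has no class letter in its name. With that alone both counts were 0 and the median log2 ratio turned from 0.22 to -0.63. The median was 0.33 with median-ratio scaling, 0.53 with quantile and 0.39 with lowess normalization, and it turned to -0.17 without sequence-family probe sets, so its sign rests on which probe sets are counted. Median-ratio scaling moved the median of all probe sets from -0.12 to -0.01. On the A chip 1 H2-Aa probe set was left above the noise limit without the sequence-family class, and with the limit halved or doubled all 3 stayed above it. Over 55 recomputed ratios of single probe sets, 3 calls were lost, 1 was gained (H2-DMa with the floor halved) and 0 changed sign. The 55 overstate stability. They include 7 that could not change, because that setting only drops probe sets under the floor on an array. A changed floor also leaves the ratio of values above it as it was. No alternative without a class letter could be given for the A chip, where every H2-Aa probe set has one. Signal over background limits H2-DMa and the dimmer H2-Eb1 probe set, at 1.21 and 1.22 times the floor in memory.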
